A study of Homo sapiens with 8 samples.

Results

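The TRIM family was followed in HSC39 cells, an established human line of diffuse gastric cancer with signet ring morphology, after small interfering RNA (siRNA) against TRIM44 or a control siRNA. Members were the probe sets with exactly 1 gene symbol made of TRIM and a number, without TRIM44 itself. That gave 56 of the 19158 probe sets with 1 symbol, for 53 of 18404 genes. TRIM26, TRIM31 and TRIM51 have 2 probe sets each, and the probe set of highest mean stands for the gene. Another 15 probe sets name a TRIM gene together with other genes, and the 18 TRIM genes seen only there, such as TRIM6, TRIM34, TRIM13 and TRIM39, are no members. The 8 arrays are 4 of cells given the All stars negative siRNA, 2 of cells given TRIM44 siRNA 7 and 2 of cells given TRIM44 siRNA 9. The labels give 100 nM TRIM44 siRNA (written nm) for 48 h. All groups share the cell line and its medium, RPMI with fetal calf serum, and no array is of another line, so each value describes HSC39 in this culture. The protocol text names TRIM44 siRNA for the control samples too, and the series text calls them untreated; the sample labels were followed. The comparisons ask which TRIM genes HSC39 expresses and whether any of them differ when TRIM44 is lowered.

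TRIM proteins share a tripartite motif, a RING finger, B-box zinc fingers and a coiled coil, followed by a C-terminal domain that differs between subfamilies. The RING finger makes most of them ubiquitin ligases, while members without it, TRIM44 among them, act as adaptors or modify other members' work. Many act in antiviral and inflammatory signalling and are induced by interferon, others regulate chromatin, microtubules or muscle protein turnover.

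Values are log2 expression levels, so a difference of 1 is a doubling. Array medians lay between 6.78 and 6.87, and any 2 arrays had a correlation of 0.991 to 0.997. The leading principal component held 32.5% of the variance, and on it negative array 2 lay at 13.6 beside the siRNA 9 arrays at 15.5 and 17.2, while the other 5 arrays lay between -11.8 and -5.57. All 6 epithelial markers looked up, EPCAM and CDH1 among them, had mean levels of 10.36 to 13.08 with negative siRNA. The leukocyte gene PTPRC had 4.25, although LYZ, or lysozyme, listed as a leukocyte marker and also made by gastric epithelium, had 11.57. Summed linear signal of the 4 leukocyte markers measured was 2780 to 3480 with negative siRNA and 2720 to 3470 with TRIM44 siRNA. LYZ makes up most of this signal, so the sum says little about leukocytes. TRIM44 itself had 11.91, 12.02, 11.91 and 11.77 on negative arrays 1 to 4, 10.85 and 11.27 with siRNA 7, and 11.10 and 11.14 with siRNA 9. All 4 TRIM44 siRNA arrays lay below all negative arrays, at 57% of the negative level (95% interval 49.1% to 66.1%; log2 difference -0.81, SE 0.10, limma adjusted p = 0.0449; 2-sided exact permutation p = 0.0286, the smallest that 70 assignments allow). This call held with siRNA 7 array 2 left out (adjusted p = 0.0306) and ended with any other array left out, with adjusted p = 0.0587 without negative array 2, 0.0929 without siRNA 7 array 1, 0.103 without negative array 4, 0.199 and 0.209 without siRNA 9 arrays 2 and 1, and 0.285 and 0.291 without negative arrays 3 and 1. The labels do not say that the samples came from separate cultures, so the p-values reflect only how far these samples differ, which may be technical.

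Most TRIM genes gave signal above a reference of genes with no known role in gastric cells. That reference is 371 olfactory receptor probe sets, whose means over the negative arrays had a median of 4.86, a 95th percentile of 6.17 and a 99th percentile of 6.93, with the brightest at 8.77. Of the 53 TRIM genes, 35 (66%) lay above the 99th percentile, 8 (15.1%) between the 95th and 99th and 10 (18.9%) at or below the 95th. Among the other genes of the array outside the olfactory receptors these shares were 61.4%, 12.3% and 26.3%. Of the 5 fibroblast, 3 endothelial and 4 leukocyte markers measured, 4, 1 and 2 also lay above the 95th percentile, and 1 of each above the 99th. Signal above the reference is thus no proof that a gene is expressed. Probe sets differ in brightness for reasons of their own sequence, and the values carry no detection call. The reference therefore places a gene against a rough background and does not rank one TRIM gene above another.

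**Figure D1:**
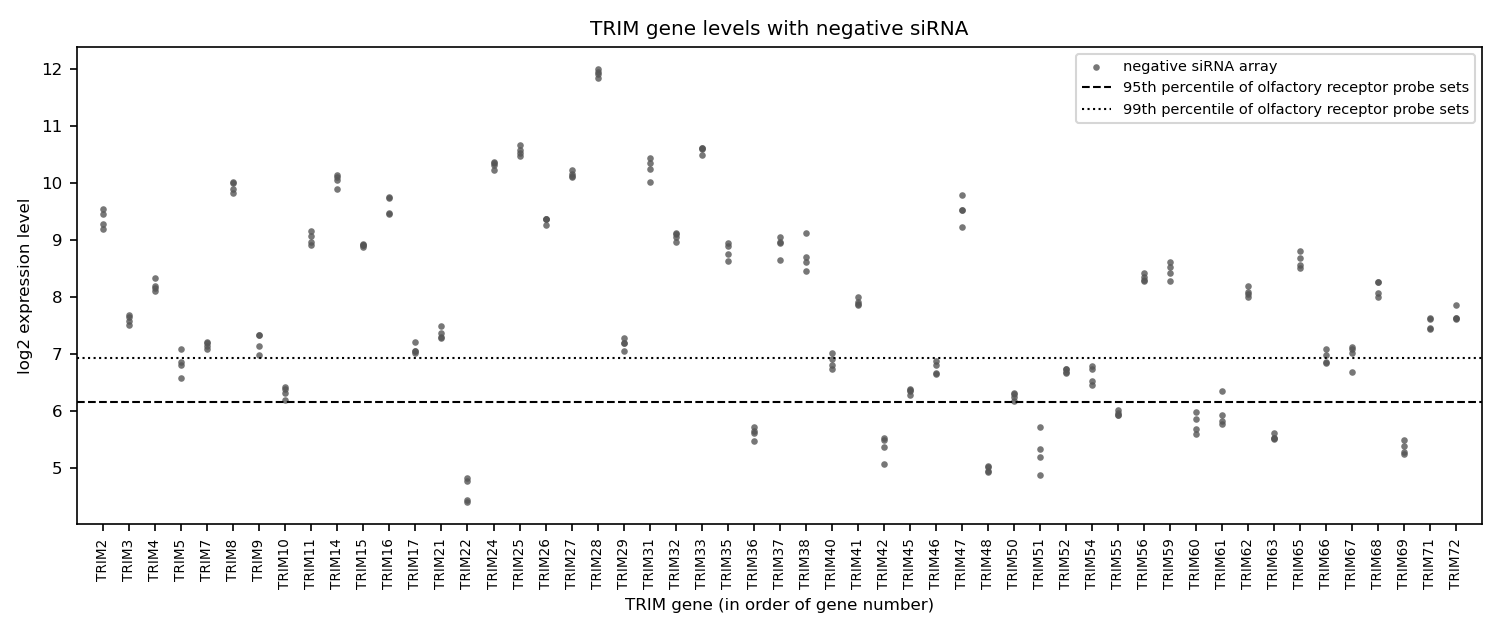
Log2 expression level (vertical axis) of each of the 53 TRIM genes (horizontal axis, in order of gene number) on the 4 negative siRNA arrays, 1 point an array, with dashed and dotted lines at the 95th (6.17) and 99th (6.93) percentiles of the olfactory receptor probe sets. TRIM28 stands at 11.92 and TRIM22 at 4.62, and 10 genes have means at or under the dashed line.

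The chromatin regulators with a PHD finger and a bromodomain were all above the reference. TRIM28, the corepressor that KRAB zinc finger proteins recruit to silence transposable elements, had 11.92 ± 0.07 (SD, n = 4). TRIM24, a coregulator of nuclear receptors, had 10.31 ± 0.06 (SD, n = 4), and TRIM33, which acts on SMAD signalling, had 10.58 ± 0.06. TRIM66, a member of this subfamily without a RING finger, had 6.94 ± 0.12, at the 99th percentile of the reference. The first 3 were thus well above the reference on every negative array, and TRIM66 was at its edge.

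The NHL-repeat members, which bind RNA or cytoskeletal cargo, were above the 99th percentile too. TRIM2, a ligase known from neurons, had 9.37 ± 0.15, TRIM32, which is mutated in a muscular dystrophy, had 9.06 ± 0.07, and TRIM3 had 7.61 ± 0.07 (SD, n = 4 each). TRIM71, a translational repressor of embryonic stem cells, had 7.53 ± 0.10.

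TRIM genes known from the gut were on both sides of the 99th percentile. TRIM31, an intestinal ligase of antiviral and inflammasome signalling, had 10.26 ± 0.19 on its brighter probe set and 9.10 ± 0.17 on the other. TRIM15 had 8.91 ± 0.02. TRIM40 and TRIM50, the latter known from gastric parietal cells, had 6.87 ± 0.13 and 6.26 ± 0.07, between the 95th and 99th percentiles (SD, n = 4 each).

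Members known from muscle, nerve or red blood cells ranged from below the reference to above it. Of the muscle ligases, TRIM63, which degrades sarcomere proteins, had 5.55 ± 0.05 and TRIM55 had 5.97 ± 0.05, both below the 95th percentile, and TRIM54 had 6.63 ± 0.15. TRIM72, which reseals the muscle cell membrane, had 7.69 ± 0.12 (SD, n = 4 each), above the 99th percentile. The neural members TRIM9 and TRIM67 had 7.21 and 6.98, above the 99th percentile, and TRIM46 had 6.76. The erythroid member TRIM10 had 6.33, so 6 of these 8 genes were above the 95th percentile and 3 above the 99th. TRIM48, TRIM51, TRIM60, TRIM61, TRIM42, TRIM36 and TRIM69 were at or below the 95th percentile, with means of 4.98 to 5.97.

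TRIM45 at 6.35 ± 0.05 and TRIM52 at 6.72 also lay between the percentiles. Above the 99th, TRIM27, first found as a fusion partner of the RET kinase, had 10.15 ± 0.05, and TRIM8, a regulator of cytokine signalling, had 9.93 ± 0.09. TRIM16, which acts in the autophagy of damaged lysosomes, had 9.60 ± 0.16 and TRIM47 had 9.51 ± 0.23. TRIM37, which is mutated in mulibrey nanism, had 8.90 ± 0.18, and TRIM65 and TRIM4, ligases of the RNA sensing pathway, had 8.64 ± 0.13 and 8.20 ± 0.10 (SD, n = 4 each). TRIM11, TRIM35, TRIM59, TRIM62, TRIM68, TRIM41, TRIM29, TRIM7 and TRIM17 had means of 7.09 to 9.02, also above the 99th percentile. TRIM26 had 9.34 ± 0.05 on its brighter probe set and 7.61 ± 0.26 on the other, and both TRIM51 probe sets were dim, at 5.28 and 4.61.

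The interferon-inducible members were split between bright and dim. TRIM25, the ligase that activates the RNA sensor RIG-I, had 10.56 ± 0.08, TRIM14, an adaptor without a RING finger in the same pathway, had 10.05 ± 0.11, TRIM38, an inhibitor of inflammatory signalling, had 8.72 ± 0.28 and TRIM56, which acts on the DNA-sensing adaptor STING, had 8.34 ± 0.07 (SD, n = 4 each). TRIM21, a cytosolic antibody receptor, had 7.37 ± 0.09. The retrovirus restriction factor gene TRIM5 had 6.84 ± 0.21, under the 99th percentile. TRIM22 had 4.78, 4.45, 4.41 and 4.84 on the negative arrays, below the median of the olfactory receptors, and TRIM69 had 5.36 ± 0.10. So 5 of the 8 measured were above the 99th percentile, and TRIM22 and TRIM69 did not reach the 95th.

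The letters of the interferon response element core, GAAA, any 2 bases and GAAA again, on either strand, are shown for the promoters that hold them, since interferon induction is the best-known shared control of this group. RefSeq promoter windows of assembly GRCh38.p14, from 250 bases before a start site to 50 after it, were held for 41 of the 53 genes. The core was found for 4 of the 7 interferon-inducible members with a window and for 3 of the other 34. A gene can have several windows, and the core was found for 4.38% of the 27305 genes with a window and in 3.57% of all 35116 windows. Each line gives 30 bases, 5′ to 3′ on the gene's own strand, with the core or its reverse complement in capitals:
TRIM5 (chr11:5685082-5685111, minus strand): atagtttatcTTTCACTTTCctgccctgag
TRIM14 (chr9:98119229-98119258, minus strand): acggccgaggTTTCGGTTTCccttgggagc
TRIM21 (chr11:4393663-4393692, minus strand): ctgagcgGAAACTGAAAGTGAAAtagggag
TRIM69 (chr15:44736456-44736485, plus strand): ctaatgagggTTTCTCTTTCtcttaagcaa
TRIM2 (chr4:153151936-153151965, plus strand): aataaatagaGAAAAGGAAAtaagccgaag
TRIM16 (chr17:15683012-15683041, minus strand): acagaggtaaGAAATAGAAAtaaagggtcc
TRIM26 (chr6:30213578-30213607, minus strand): cgcctgaTTTCAGTTTCCATTTCgctgccc
TRIM44 (chr11:35662730-35662759, plus strand): tcctgacgggGAAAGGGAAAgtggaaccgg
TRIM21 and TRIM26 hold 2 overlapping copies, and the window of TRIM44 holds 1. TRIM2, TRIM16 and TRIM26 are not on the interferon list. A match is a description of letters and not a site. The 7 members with a core ranged from 5.36 (TRIM69) to 10.05 (TRIM14) in level, and none of them passed a test in any comparison.

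With both TRIM44 reagents taken as 1 condition, no TRIM gene other than TRIM44 passed the test. TRIM68, known as a coactivator of the androgen receptor, was the only member whose 4 TRIM44 siRNA arrays all lay on 1 side of the negative arrays. Differences of the 53 genes ran from -0.28 (TRIM68) to 0.21 (TRIM52), with a median of 0.00, against 0.01 over all genes tested. The limma fit called 0 of the 53 at an adjusted p under 0.05, beside 0.00522% of all 19158 probe sets, which is TRIM44 alone. At an unadjusted p under 0.05 there was 1 TRIM gene (1.89%), where the share over all probe sets was 5.43%. For 52 of the 53 the 95% interval lay within a 1.5-fold change either way, as it did for 97.2% of all genes, and the exception was TRIM38, with an interval of -0.22 to 0.63.

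TRIM68 had 8.01, 8.26, 8.26 and 8.07 on the negative arrays, 8.0 and 7.80 with siRNA 7 and 7.97 and 7.71 with siRNA 9. The highest TRIM44 siRNA array, siRNA 7 array 1, lay just under the lowest, negative array 1, so the groups nearly touched. The difference was -0.28 (SE 0.09, 95% interval -0.49 to -0.07, limma adjusted p = 0.814). All 4 TRIM44 siRNA arrays lay below all negative arrays for 1 of 53 TRIM genes (1.89%) and for 1.26% of all probe sets, and above them for 0 of 53 and 1.59%, so the share is near the background.

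TRIM14, TRIM2, TRIM52 and TRIM59 followed in order of unadjusted p and did not pass. TRIM14 had 10.14, 9.90, 10.05 and 10.10 on the negative arrays, 9.88 and 9.77 with siRNA 7 and 9.99 and 9.85 with siRNA 9, a difference of -0.18 (SE 0.08, limma adjusted p = 0.922). TRIM2 had 0.20, TRIM52 had 0.21 and TRIM59, a membrane-anchored member, had -0.19, and their arrays overlapped between the groups. Other members stood close to 0. TRIM28 had 0.02, TRIM33 had 0.02, TRIM24 had 0.00, TRIM25 had -0.05 and TRIM27 had 0.04.

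**Figure D2:**
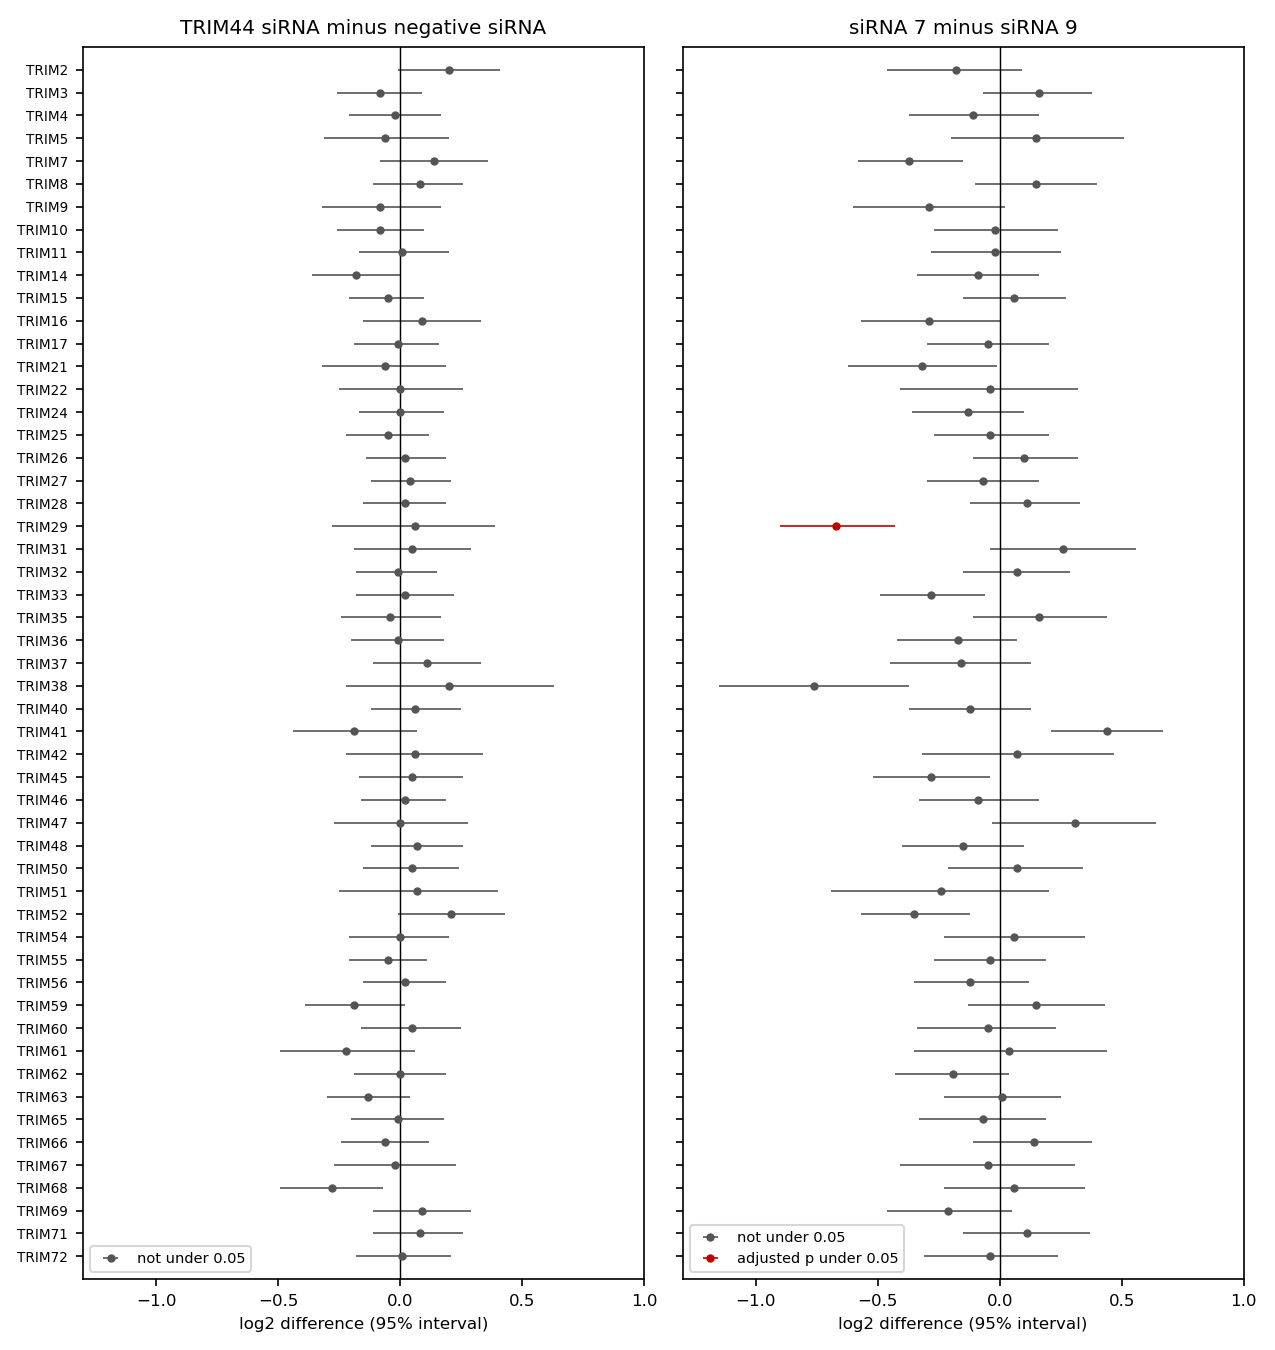
Log2 differences with 95% intervals (horizontal axis) for the 53 TRIM genes (vertical axis), for both TRIM44 reagents against negative siRNA on the left and for siRNA 7 against siRNA 9 on the right. On the left no gene passed the threshold and points lie between -0.28 and 0.21; on the right TRIM29, in red, passed at -0.67.

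The reagents differed from each other for TRIM29, a member without a RING finger that is known from squamous epithelium and the DNA damage response. TRIM29 had 7.20, 7.19, 7.06 and 7.28 on the negative arrays, 6.96 and 6.85 with siRNA 7 and 7.59 and 7.55 with siRNA 9. Both siRNA 7 arrays lay below every negative array and both siRNA 9 arrays above, so negative siRNA stood between the reagents. The difference of siRNA 7 from siRNA 9 was -0.67 (SE 0.11, 95% interval -0.90 to -0.43, limma adjusted p = 0.0142), a fold of 0.63. TRIM29 was the only one of the 53 past the threshold in this comparison, which called 2.23% of all probe sets, so 1 call in 53 (1.89%) is near the background. At an unadjusted p under 0.05 there were 8 of the 53 (15.1%), beside 15.7% of all probe sets, 7 of them lower with siRNA 7 and 1 higher. Over all genes tested, 1775 were lower with siRNA 7 and 1127 higher at that p, so the lean to lower values is also in the background. Against negative siRNA TRIM29 had -0.28 with siRNA 7 (limma adjusted p = 0.458) and 0.39 with siRNA 9 (limma adjusted p = 0.0811), neither past the threshold. Its mean of 7.18 with negative siRNA was just above the 99th percentile of the olfactory receptors, and its siRNA 7 arrays were at about that percentile. The share of all probe sets called was 5.48% without negative array 2, 1.14% without negative array 3, 1.01% and 0.245% without siRNA 7 arrays 1 and 2, and 0% without either siRNA 9 array. The call of TRIM29 ended, with the difference between -0.69 and -0.62, without siRNA 7 array 2 (adjusted p = 0.092), siRNA 9 array 1 (0.182) or siRNA 9 array 2 (0.128), and with all 32321 probe sets tested (0.0646).

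siRNA 9 arrays above and siRNA 7 arrays below all negative arrays were seen for TRIM29 and TRIM33, 2 of 53 TRIM genes (3.77%), and for 1.45% of all probe sets. The reverse was seen for 0 of 53 and 0.861%. TRIM33 had 10.61, 10.60, 10.61 and 10.49 on the negative arrays, 10.44 and 10.48 with siRNA 7 and 10.75 and 10.73 with siRNA 9. Its reagents differed by -0.28 (SE 0.10, limma adjusted p = 0.188), less than 1.5-fold at any point of the interval from -0.49 to -0.06.

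TRIM38 and TRIM41 came next in the comparison of reagents and stood at the edge of the threshold. TRIM38 had 8.45, 9.12, 8.70 and 8.62 on the negative arrays, 8.63 and 8.46 with siRNA 7 and 9.38 and 9.23 with siRNA 9. Negative array 2 was 0.53 above the mean of the other negative arrays, on the side of siRNA 9, as on the first principal component. The cause was not tested. In the comparison of reagents the negative arrays enter only through the shared spread. With negative array 2 left out, the SE went from 0.18 to 0.11 and the difference stayed at -0.76. The reagents differed by -0.76 (SE 0.18, 95% interval -1.15 to -0.37, limma adjusted p = 0.0505), and the adjusted p was 0.0047 without negative array 2, 0.044 without negative array 1 and 0.0542 to 0.335 without any other array. TRIM41, a ligase known for degrading protein kinase C, had 7.87, 7.88, 8.01 and 7.92 on the negative arrays, 7.99 and 7.91 with siRNA 7 and 7.59 and 7.44 with siRNA 9. Only the siRNA 9 arrays left the range of the others, and the reagents differed by 0.44 (SE 0.11, adjusted p = 0.0548; 0.0288 without negative array 2 and 0.0564 to 0.354 without any other).

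**Figure D3:**
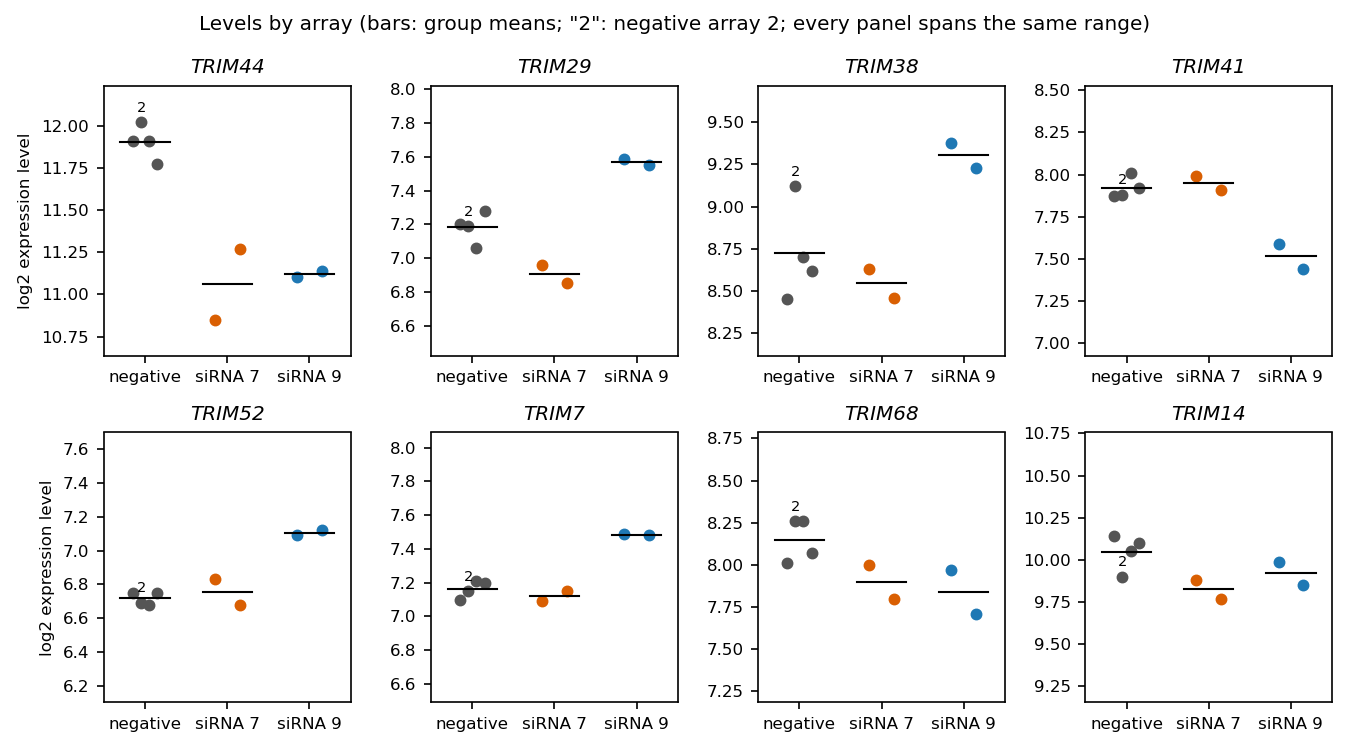
Log2 expression level (vertical axis) by group (horizontal axis) for TRIM44 and 7 TRIM genes, 1 point an array, with bars at group means, the number 2 at negative array 2, and the same span in every panel. TRIM44 is low with both reagents, TRIM29 moves apart in both directions, and for TRIM38, TRIM41, TRIM52 and TRIM7 both siRNA 9 arrays lie outside the range of all other arrays.

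With siRNA 9 alone none of the 53 TRIM genes passed the test against negative siRNA, and their differences had a median size of 0.08, where all genes had 0.10. The 4 members of smallest p above negative siRNA were TRIM52, TRIM29, TRIM38 and TRIM7, and below it TRIM41, TRIM68, TRIM59 and TRIM3. The fit called 0 of 53, beside 0.924% of all probe sets, and 8 (15.1%) had an unadjusted p under 0.05 where the share over all probe sets was 13.6%. Differences ran from -0.40 (TRIM41) to 0.58 (TRIM38), with a median of 0.02, as over all genes. Without negative array 2 the fit called 4 of the 53, TRIM29, TRIM38, TRIM41 and TRIM52, while it called 5.57% of all probe sets. With any other array left out it called 0 of the 53, and the share of all probe sets was 0% without either siRNA 9 array, 0.245% without negative array 3 and 0.386% without negative array 1. Both siRNA 9 arrays exceeded all negative arrays for 8 TRIM genes (15.1%), TRIM2, TRIM7, TRIM16, TRIM29, TRIM33, TRIM38, TRIM45 and TRIM52, beside 13.4% of all probe sets. They lay below for 6 (11.3%), TRIM3, TRIM15, TRIM41, TRIM63, TRIM66 and TRIM68, beside 9.23%. These shares, like that at unadjusted p, are near the background.

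TRIM52, a short member with an enlarged RING finger and no C-terminal domain, had 6.75, 6.69, 6.68 and 6.75 on the negative arrays, 6.83 and 6.68 with siRNA 7 and 7.09 and 7.12 with siRNA 9. The siRNA 9 arrays were above all the others, by 0.38 against negative siRNA (SE 0.09, limma adjusted p = 0.0711, 0.0331 without negative array 2 and 0.0801 to 0.492 without any other). TRIM7, which binds glycogenin, had 7.10, 7.15, 7.21 and 7.20 on the negative arrays, 7.09 and 7.15 with siRNA 7 and 7.49 and 7.48 with siRNA 9. Its difference with siRNA 9 was 0.32 (SE 0.09, adjusted p = 0.111). TRIM41 had -0.40 in the same comparison (SE 0.09, adjusted p = 0.07, 0.0247 without negative array 2 and 0.0859 to 0.533 without any other), and TRIM38 had 0.58 (SE 0.15, adjusted p = 0.109, 0.00369 without negative array 2 and 0.126 to 0.63 without any other). For TRIM52, TRIM7, TRIM29 and TRIM41 negative array 2 was within 0.06 of the mean of the other negative arrays.

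TRIM7, TRIM41 and TRIM52 are neighbours in the genome, in this order in RefSeq, and with siRNA 9 the outer members had positive differences and the middle one a negative one. Of the genes measured between TRIM41 and TRIM52, the small nucleolar RNA genes SNORD96A and SNORD95 had -0.34 and 0.06 with siRNA 9, and neither passed. Around TRIM38, whose measured neighbours are the transporter genes SLC17A3 and SLC17A2 on one side and the histone genes H1-1 and H3C1 on the other, siRNA 9 differences were -0.12, -0.04, -0.03 and -0.21. Next to TRIM29, THY1 had 0.09, NECTIN1 0.03, OAF -0.09 and POU2F3 0.02, beside 0.39 for TRIM29 itself. All 4 measured neighbours of TRIM38 had negative differences, and those of TRIM29 lay on both sides of 0.

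The promoter sequences of TRIM38, TRIM41 and TRIM52 are given because these 3 members and TRIM29 were those called with siRNA 9 once negative array 2 was left out. Each is the 250 bases before the start in GRCh38.p14, 5′ to 3′ on the gene's strand. Capitals mark matches, on either strand, to the GC box GGGCGG, the CCAAT box CCAAT, the TATA box TATAAA, the ETS core CCGGAAGT or the interferon core described above:
TRIM38 (chr6:25962552-25962801, plus strand): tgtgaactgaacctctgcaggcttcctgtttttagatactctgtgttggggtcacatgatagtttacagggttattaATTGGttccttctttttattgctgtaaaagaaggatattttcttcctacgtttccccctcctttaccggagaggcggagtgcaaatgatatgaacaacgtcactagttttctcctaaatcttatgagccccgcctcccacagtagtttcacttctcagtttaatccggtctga
TRIM41 (chr5:181223031-181223280, plus strand): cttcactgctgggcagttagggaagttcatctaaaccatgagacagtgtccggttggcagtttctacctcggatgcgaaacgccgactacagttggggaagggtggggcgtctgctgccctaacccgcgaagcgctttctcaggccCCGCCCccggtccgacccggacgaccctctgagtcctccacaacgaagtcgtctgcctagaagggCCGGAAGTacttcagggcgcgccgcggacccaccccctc
TRIM52 (chr5:181261144-181261393, minus strand): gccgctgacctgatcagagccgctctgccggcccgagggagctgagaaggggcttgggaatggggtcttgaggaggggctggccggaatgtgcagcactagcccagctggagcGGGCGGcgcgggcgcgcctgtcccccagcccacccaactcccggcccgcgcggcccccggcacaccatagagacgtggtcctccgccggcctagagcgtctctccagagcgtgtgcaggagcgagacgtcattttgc
TRIM38 held a CCAAT box 173 bases before the start, TRIM41 a GC box 104 and an ETS core 39 bases before it, and TRIM52 a GC box 137 bases before it. Of all 35116 windows 45% held the GC box, 34.6% the CCAAT box, 4.14% the ETS core and 11.5% the TATA box, so the ETS core of TRIM41 is the least common of these letters. GC content was 42.4% for TRIM38, 62.8% for TRIM41 and 70.4% for TRIM52, against a median of 58% over all windows. No motif was shared by all 3 promoters in these bases.

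With siRNA 7 alone, TRIM29, TRIM14, TRIM68 and TRIM21 had the smallest p below negative siRNA, and TRIM8, TRIM31, TRIM71 and TRIM47 above it. The fit called 0 of 53, beside 0.0679% of all probe sets (0.00522% to 0.183% with each array left out, and 0 TRIM genes each time), and 2 TRIM genes (3.77%) had an unadjusted p under 0.05, where the share over all probe sets was 7.46%. Differences ran from -0.28 (TRIM29) to 0.18 (TRIM31), and for all 53 the 95% interval lay within 1.5-fold either way, as for 95.5% of all genes. Both siRNA 7 arrays exceeded all negative arrays for 1 TRIM gene (1.89%), TRIM26, beside 6.38% of all probe sets, and below for 4 (7.55%), TRIM14, TRIM29, TRIM33 and TRIM68, beside 7.99%. TRIM14 had -0.22 (SE 0.10, limma adjusted p = 0.649) and TRIM68 had -0.25 (SE 0.12, adjusted p = 0.67). TRIM21 had 7.33 and 6.97 on the siRNA 7 arrays, so the low value was on array 2. TRIM31 had 10.38 and 10.50 against 10.24, 10.01, 10.35 and 10.44 with negative siRNA, and its second probe set had 0.25 against 0.18 for the first (adjusted p = 0.645 and 0.854). The reagents share the negative arrays, so their values against negative siRNA are not independent of each other.

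**Figure D4:**
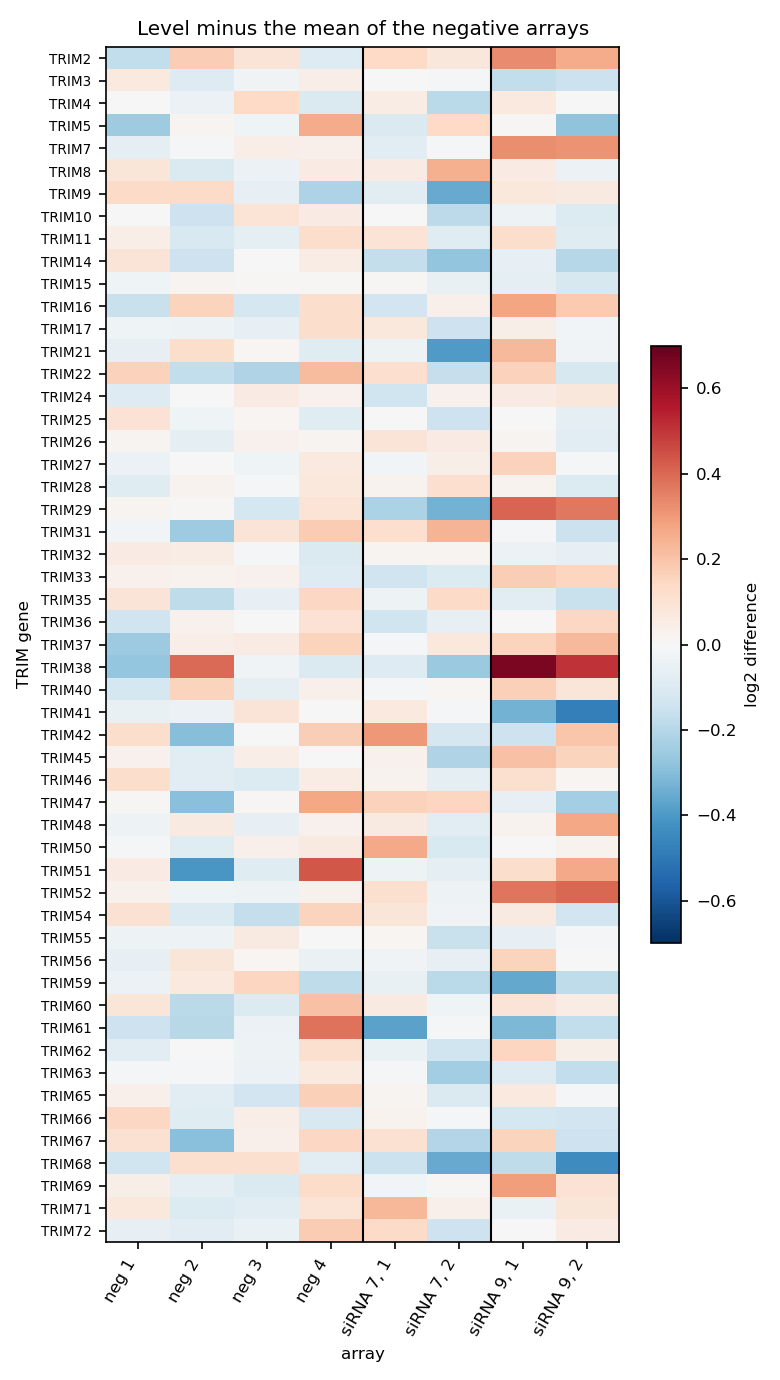
Level of each of the 53 TRIM genes (rows) on each array (columns) minus the mean of its 4 negative arrays, as a colour from blue (lower) to red (higher) on a log2 scale. The siRNA 9 columns are red for TRIM29, TRIM38, TRIM52 and TRIM7 and blue for TRIM41, and TRIM38 is also red on negative array 2.

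By role, no group of TRIM genes had more than 1 called member in any comparison, and that member was TRIM29 of the RING-less group, between the reagents. In the order of both reagents, siRNA 7 and siRNA 9 against negative siRNA, medians of the 8 interferon-inducible genes were -0.03, -0.06 and 0.05, those of the 4 RING-less genes -0.00, -0.14 and 0.05, and those of the 4 gut genes 0.05, 0.04 and -0.03. The PHD-bromodomain genes had 0.01, -0.03 and 0.02, the NHL-repeat genes 0.03, 0.07 and -0.01, and the muscle genes -0.03, -0.04 and -0.03. Over all genes the medians were 0.01, -0.00 and 0.02. Within the interferon-inducible group with siRNA 9, TRIM38 had 0.58 and TRIM69 had 0.20, TRIM21, TRIM56 and TRIM22 had 0.09, 0.08 and 0.02, and TRIM25, TRIM14 and TRIM5 had -0.04, -0.13 and -0.14.

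No TRIM protein gene that carries another name was called. Of 7 measured, among them PML of nuclear bodies and the microtubule ligase gene MID1, 0 passed in any comparison, with MID1 at -0.38 between the reagents (limma adjusted p = 0.13). Of 15 measured partners of TRIM proteins, such as MAVS, TBK1 and the histone methyltransferase gene SETDB1, 1 passed with siRNA 9, beside 0.924% of all probe sets, and 1 between the reagents, beside 2.23%. In both it was UBE2N, the conjugating enzyme that antiviral TRIM ligases use, which had 9.99, 10.13, 9.91 and 10.15 on the negative arrays, 10.09 and 10.31 with siRNA 7 and 9.08 and 9.01 with siRNA 9. UBE2N fell with siRNA 9 to 0.5 of the negative level (log2 SE 0.10, limma adjusted p = 0.00326), and between the reagents it was higher with siRNA 7 by 1.15 (adjusted p = 0.00264). Both calls ended without siRNA 9 array 1 (adjusted p = 0.117 and 0.0601) or siRNA 9 array 2 (0.0884 and 0.0605). Of 20 interferon response genes measured, 0 passed in any comparison, and all-probe-set shares ran from 0.00522% to 2.23%. These genes had medians of -0.07 with siRNA 7 and 0.13 with siRNA 9. Only 10 of the 20 lay above the 95th percentile of the olfactory receptors with negative siRNA, so the medians include dim probe sets.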

How the data were processed

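Total RNA of 8 HSC39 samples was measured on whole-transcript arrays. The authors deposited 1 log2 expression level for each probe set and array. The submitters' processing notes name limma; background correction, normalization and genome build were not given in the sources used here. No column lacked a sample. The number of arrays limits the precision.

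Probe sets with exactly 1 symbol (19158; 1388 had several and 11775 none) were named from the platform annotation, with 19128 gene IDs found in RefSeq GRCh38.p14 and 0 symbols changed. Both reagents against negative siRNA were fitted as 2 groups, and each reagent in 3 group means, with lmFit and eBayes of limma 3.58.1 in R 4.3.3 (statmod 1.5.0, matplotlib 3.10.9), 2-sided. P-values were adjusted by Benjamini-Hochberg over all 19158, with 0.05 as threshold. Intervals are 95% intervals of the fits. The scripts were tested on simulated data. Replicate numbers 1 and 2 recur across groups. Deviations of same-numbered arrays correlated at 0.27 and 0.31 between negative siRNA and siRNA 7, and at 0.02 to 0.13 otherwise. These values do not decide whether the arrays are pairs. The main fits did not treat them as pairs, and a replicate block was an alternative. Members and gene lists were chosen with earlier results of these data known. Named were members past the threshold, the 4 of smallest p each way per comparison, and those of the role lists; neighbours and promoters were chosen after their values were seen. Alternatives were other normalizations, probe set filters, variance priors, array weights, blocks, designs and each array left out.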

Additional observations from a re-analysis of the deposited data

Results flagged for a closer look

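TRIM29 differed between the reagents, with siRNA 7 lower than siRNA 9 by a log2 difference of -0.67. Among the 4 negative arrays, 1 array stood far from the other 3 for 4 of 54 TRIM genes, TRIM44 included, where chance gives about 1 in 20 groups. The gap as a share of the range was 0.929 for TRIM33, 0.854 for TRIM17 and 0.913 for TRIM72, each on negative array 4, and 0.836 for TRIM26 on negative array 2, above Dixon's 95% critical value for 4 samples. Their negative arrays spanned 10.49 to 10.61, 7.03 to 7.21, 7.61 to 7.86 and 9.27 to 9.37.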

How the results depend on the processing

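No TRIM gene was called for both reagents or for siRNA 7 under any alternative. For siRNA 9 the count of 0 became 1 (TRIM41) after quantile normalization, after median centring and with the upper 50% of probe sets. The shares of all probe sets tested were then 1.18%, 0.971% and 4.07%, beside 0.924% in the main fit. With array weights the count was 8, where 10.9% of all probe sets were called. It was 0 to 4 with each negative array left out, where the share was 0.245% to 5.57%. Between the reagents the main fit called 1 TRIM gene and 2.23% of all probe sets. The count became 3 after quantile normalization (2.84% of all probe sets) and with the trended and robust prior (4.13%). It became 2 after median centring (2.06%) and with only the arrays compared (4.21%). With the upper 50% of probe sets (7.34%) it was also 2, TRIM38 and TRIM41, while TRIM29 is not among these probe sets. The count was 0 over every probe set of the array (0.0248%) and 4 with array weights (5.55%). With each negative array left out it was 1 to 4 (1.14% to 5.48%). The cause was not tested. TRIM44 had -0.81 after median centring (adjusted p = 0.0804), with siRNA identity as random block (0.108) and over all probe sets (0.442), and -0.87 to -0.73 with each array left out. With the replicate block TRIM44 had -0.88 (SE 0.11, limma adjusted p = 0.998), in a fit that called 0 of all probe sets. Replicate numbers 3 and 4 occur only among the negative arrays, so the block takes up these arrays. TRIM29 between the reagents kept its call with the block (-0.67, limma adjusted p = 0.0225). Counts of TRIM genes stayed at 0, 0, 0 and 1, while calls over all probe sets with siRNA 9 went from 177 to 44. The 43 TRIM genes above the olfactory receptor reference were 35 at its 99th percentile. Of 187 values of named members under alternatives, 0 reversed, 27 gained a call, 4 lost one and 156 kept their side of the threshold. Only TRIM29 between the reagents had a call to lose, so all 4 lost calls were its own.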
